A study of Mus musculus with 2 samples.

Results

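Within a culture of mouse embryonic stem cells treated with Idoxuridine, cells that carried transcripts of the germ cell gene Dazl were set against cells of the same library that carried none. The library came from E14 cells, a male line, labelled with the strain C57BL/6, kept without feeder cells on gelatin in 2i/LIF medium and given Idoxuridine for 24 h at 10 µM by the treatment label. A protocol field gives the dose in mM in place of µM. The second library came from the same line kept the same way and given DMSO, the solvent, for 24 h. Both were 10x Genomics 3′ V2 single-cell libraries, with 1 library of 1 line per treatment and no replicate culture. To give each cell the same chance of showing Dazl, cells were thinned at random to 1 fixed number of unique molecular identifiers (UMIs, each standing for 1 captured transcript). That depth, set from the 10th percentile over cells of both libraries and rounded down to a multiple of 500 UMIs, left out shallower cells. Of 742 Idoxuridine cells, 648 were deep enough and 94 were not. Among these 648 cells, 187 had 2 or more Dazl UMIs and are called Dazl-positive, 328 had 0 and are called Dazl-zero, and 133 had 1 UMI and were put on neither side. The whole series holds 1553 cells.

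Dazl encodes an RNA-binding protein that germ cells need for their development, and most other tissues do not express it. Like many germ cell genes it has a promoter rich in CpG that DNA methylation and repressor complexes keep silent in other cells. Idoxuridine is a thymidine analogue that cells build into new DNA. Embryonic stem cells grown in 2i/LIF carry little DNA methylation, and some germ cell transcripts are known in them at a low level. The question here was which other genes differed between the Dazl-positive and the Dazl-zero cells, with germ cell genes first.

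The sides were chosen by Dazl, so its own values are a description of the choice. Dazl, at chr17:50279395-50293636 on GRCm38, minus strand, protein-coding, had 1329 UMIs in the 187 positive cells, or 302 counts per 10⁶ UMIs (CPM; 95% Poisson interval 286 to 319). The median positive cell had 4 Dazl UMIs and the highest had 49. Just inside the threshold were 47 cells with 2 UMIs, and just outside were the 133 cells with 1. The share of cells with 2 or more Dazl UMIs was 28.9% (25.4 to 32.5) of the Idoxuridine cells and 3.01% (1.92 to 4.48) of the 764 DMSO cells deep enough. At least 1 Dazl UMI was found in 49.4% of these Idoxuridine cells and 13.5% of these DMSO cells. No cell type that should lack Dazl was in the libraries, so the level given by free RNA was not measured, and a cell with 0 UMIs may still have expressed the gene.

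Cells of 1 library are not replicates, and no test between the sides was made. Intervals in parentheses are 95% intervals that cover counting error only, not differences between cells or cultures. A gene is called higher or lower where it had at least 50 UMIs over both sides, a log2 ratio of positive over zero cells of at least 0.5 in size, and Poisson intervals of the CPM that did not overlap. Of 10142 genes with that minimum, 107 (1.06%) were higher and 26 (0.256%) were lower in the Dazl-positive cells. The median log2 ratio of these genes was 0.03 (quartiles -0.09 and 0.16), and 76.2% lay within 0.25. Scaling by trimmed mean of M values put that median at -0.02 and gave 77 higher and 40 lower. The calls depended on the random thinning: of the 107 higher genes, 41 were also higher in draw 2 and 37 in draw 3, each with its sides chosen anew. Of the 26 lower genes, 6 were also lower in draw 2 and 4 in draw 3. In all 3 draws 27 genes were higher and 2 were lower.

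The germ cell genes stood higher as a group in the Dazl-positive cells. The list used was chosen with earlier results of these data known. It held 76 germline genes other than Dazl that are kept silent by promoter methylation, and 74 were in the table. Their summed level was 1032 CPM (1002 to 1062) in the Dazl-positive cells and 749 CPM (730 to 769) in the Dazl-zero cells, a log2 ratio of 0.46 (0.41 to 0.52). With the UMI minimum, 33 members could be called, and 10 of them (30.3%) were higher and 0 lower, beside 1.06% and 0.256% of all genes. The minimum sums both sides, so a gene can reach it through a high count in the positive cells. At a minimum of 20 UMIs, 10 of 46 members were higher, beside 0.997% of all genes. Without a minimum it was 12 of 70, beside 0.720%. The 33 ratios lay between -0.41 and 1.68 with a median of 0.57, and 30 were above 0. The other 41 members were under the minimum, 4 of them without any UMI. Of those, 27 had a ratio above 0 and 10 below, and their pooled ratio was 0.47 (0.23 to 0.71).

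**Figure D1:**
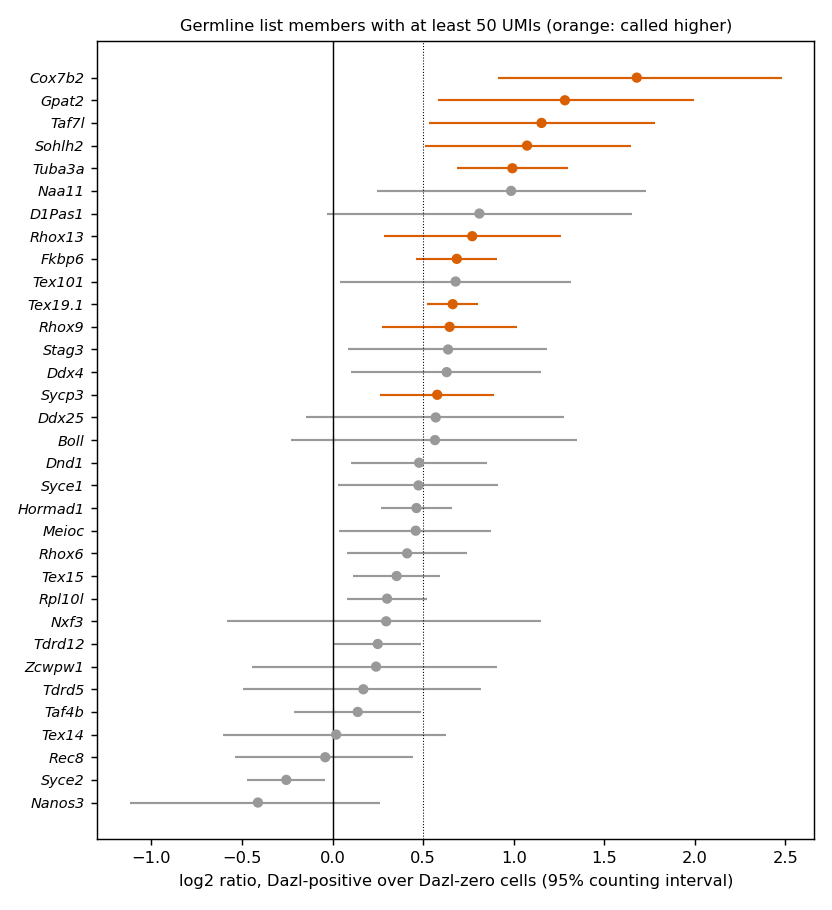
Log2 ratio of Dazl-positive over Dazl-zero cells for the 33 germline genes with at least 50 UMIs, with 95% counting intervals, the 10 genes called higher in orange and a dotted line at 0.5. Of the 33, 30 lie right of 0, and Cox7b2 at 1.68 lies farthest right.

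The promoters of Dazl and of 4 germline genes called higher are shown because methylation of CpG sites in such promoters is how these genes are known to be kept silent. Each is the 250 bases before the gene's start in a RefSeq table on GRCm38.p6, read 5′ to 3′ on the gene's own strand, with every CG dinucleotide in capitals.
Dazl, chr17:50293621-50293870, minus strand: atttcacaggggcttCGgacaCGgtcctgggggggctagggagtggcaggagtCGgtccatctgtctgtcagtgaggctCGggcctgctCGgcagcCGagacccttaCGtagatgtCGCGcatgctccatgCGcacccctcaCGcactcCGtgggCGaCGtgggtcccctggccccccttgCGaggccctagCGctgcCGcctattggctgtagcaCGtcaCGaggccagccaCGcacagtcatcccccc
Taf7l, chrX:134476491-134476740, minus strand: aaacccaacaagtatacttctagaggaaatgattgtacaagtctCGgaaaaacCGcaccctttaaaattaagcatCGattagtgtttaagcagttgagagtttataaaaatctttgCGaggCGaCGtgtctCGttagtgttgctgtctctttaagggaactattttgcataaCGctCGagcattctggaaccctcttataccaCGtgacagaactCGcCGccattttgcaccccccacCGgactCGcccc
Fkbp6, chr5:135350045-135350294, minus strand: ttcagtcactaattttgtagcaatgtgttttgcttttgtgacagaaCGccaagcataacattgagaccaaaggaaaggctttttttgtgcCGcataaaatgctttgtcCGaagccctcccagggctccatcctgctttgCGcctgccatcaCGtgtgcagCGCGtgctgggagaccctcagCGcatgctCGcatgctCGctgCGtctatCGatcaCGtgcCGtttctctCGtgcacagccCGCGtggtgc
Tex19.1, chr11:121145893-121146142, plus strand: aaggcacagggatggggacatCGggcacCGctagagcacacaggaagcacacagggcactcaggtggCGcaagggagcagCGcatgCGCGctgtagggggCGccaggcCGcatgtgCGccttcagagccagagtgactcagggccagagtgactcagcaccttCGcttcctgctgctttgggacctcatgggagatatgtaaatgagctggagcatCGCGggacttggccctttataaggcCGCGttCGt
Sycp3, chr10:88459337-88459586, plus strand: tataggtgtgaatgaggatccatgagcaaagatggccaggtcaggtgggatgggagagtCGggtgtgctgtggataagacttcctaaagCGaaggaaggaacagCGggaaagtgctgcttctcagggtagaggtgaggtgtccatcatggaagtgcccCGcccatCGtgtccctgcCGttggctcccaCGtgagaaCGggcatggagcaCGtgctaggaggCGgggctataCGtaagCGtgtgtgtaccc
The Dazl window holds 20 CG dinucleotides, that of Fkbp6 17, that of Tex19.1 15, that of Taf7l 14 and that of Sycp3 12. Over the 27 of 33 germline members with a promoter in the table the median was 13 (quartiles 10.5 and 17), against 17 (11 and 23) over 7780 of the 10142 genes with the minimum and 6 over all 27025 promoters. Of the 10 members called higher, 9 had a window, with a median of 12. Among those not printed, Sohlh2 has 14, Gpat2 11, Cox7b2 9, Tuba3a 8 and Rhox13 4. The letters CACGTG, an E-box, were in 25.9% of the 27 germline windows, 9.04% of the 7780 and 6.05% of all. The letters TCCCGC, read on both strands, were in 55.6% of the 27 germline windows, 32.2% of the 7780 and 16.9% of all. Of the 9 windows of members called higher, 33.3% held the first motif and 44.4% the second. Taf7l and Fkbp6 held the first motif, Tex19.1 the second, Sycp3 both and Dazl neither. Of the windows not printed, those of Cox7b2 and Tuba3a held the second, and those of Gpat2, Sohlh2 and Rhox13 neither. The 4 printed windows were picked after their letters were seen, and each holds a motif, as 2 of these 5 do. A match describes letters in these windows only.

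In the piRNA pathway, small RNAs silence transposons in germ cells. Its genes summed to 332 CPM in the Dazl-positive cells and 222 CPM in the Dazl-zero cells. The log2 ratio was 0.58 (0.48 to 0.68), and 2 of 4 members with the minimum were called higher, beside 1.06% of all genes. Tex19.1, a germ cell protein that holds down retrotransposons, had 772 UMIs or 176 CPM (163 to 189) in the Dazl-positive cells and 855 UMIs or 111 CPM (104 to 119) in the Dazl-zero cells, a ratio of 0.66 (0.52 to 0.81). At least 1 Tex19.1 UMI was seen in 79.1% of the positive cells and 68.6% of the zero cells, so most cells on both sides carried it. Fkbp6, an immunophilin family member needed for piRNA production and male meiosis in mice, had 73.0 CPM (65.3 to 81.5) in the positive cells and 45.4 CPM (40.8 to 50.4) in the zero cells, a ratio of 0.69 (0.46 to 0.91). Fkbp6 was seen in 60.4% of the positive cells and 44.5% of the zero cells. Tdrd12, a Tudor domain protein of the same pathway, was not called, at 0.25 (0.01 to 0.49).

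Transcription factors of the germ line summed to 131 CPM in the Dazl-positive cells and 89.9 CPM in the Dazl-zero cells, a ratio of 0.55 (0.38 to 0.71). Of 6 with the minimum, 4 were called higher, beside 1.06% of all genes. Taf7l, a germ cell relative of a subunit of the general factor TFIID, had 11.8 CPM (8.84 to 15.5) in the positive cells and 5.32 CPM (3.82 to 7.22) in the zero cells, a ratio of 1.15 (0.54 to 1.78). A single positive cell held 10 of its 52 UMIs on that side, and without it the ratio was 0.85. Sohlh2, a helix-loop-helix factor of early spermatogenesis and oogenesis, had 13.7 CPM (10.4 to 17.6) in the positive cells and 6.49 CPM (4.81 to 8.55) in the zero cells, a ratio of 1.07 (0.51 to 1.64). The X-linked homeobox genes Rhox13 and Rhox9, expressed in reproductive tissues, had ratios of 0.77 (0.28 to 1.26) and 0.65 (0.27 to 1.02). Rhox13 stood at 16.4 CPM in the positive cells and 9.60 CPM in the zero cells, and Rhox9 at 26.4 CPM in the positive cells and 16.9 CPM in the zero cells. Their neighbour Rhox6 was not called, at 0.41, nor was Taf4b, a gonadal TFIID subunit gene, at 0.14.

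Genes of meiotic chromosomes had the lowest summed ratio of the 5 role groups, though its interval overlapped that of the RNA-binding proteins and its median was 0.46, as in the piRNA group. Their sums were 322 CPM in the Dazl-positive cells and 267 CPM in the Dazl-zero cells, a ratio of 0.27 (0.17 to 0.37). Of 8 such genes with the minimum, 1 was called higher, beside 1.06% of all genes. Sycp3, which builds the axial element of the synaptonemal complex, had 36.4 CPM (31 to 42.5) in the positive cells and 24.4 CPM (21 to 28.1) in the zero cells, a ratio of 0.58 (0.26 to 0.89). Hormad1, a protein of unpaired meiotic chromosome axes, had 89.4 CPM (80.8 to 98.7) in the positive cells and 64.9 CPM (59.3 to 70.8) in the zero cells, and its ratio of 0.46 (0.27 to 0.66) was under the size limit. Hormad1 was seen in 76.5% of the positive cells and 62.8% of the zero cells. Stag3, a meiotic cohesin subunit, had a ratio of 0.64 with overlapping intervals, and Meioc, a meiotic regulator, 0.46. Syce2, of the central element of the synaptonemal complex, went the other way at 61.0 CPM in the positive cells and 72.8 CPM in the zero cells, a ratio of -0.26 (-0.47 to -0.04), and the cohesin subunit Rec8 was at -0.04.

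The RNA-binding proteins, the class to which Dazl belongs, had 0 of 4 other members called, beside 1.06% of all genes higher. Their sums were 51.4 CPM in the Dazl-positive cells and 40.2 CPM in the Dazl-zero cells, a ratio of 0.35 (0.10 to 0.61). The germ cell helicase gene Ddx4, also named Vasa, had 60 UMIs or 13.7 CPM in the positive cells and 68 UMIs or 8.82 CPM in the zero cells, a ratio of 0.63 (0.10 to 1.15). Boll, of the same family as Dazl, had 6.14 CPM in the positive cells and 4.15 CPM in the zero cells, a ratio of 0.57 (-0.23 to 1.35). Dnd1, which protects primordial germ cell transcripts, had a ratio of 0.48, and Nanos3, a translational repressor of primordial germ cells, one of -0.41 (-1.12 to 0.26).

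Other germ cell products summed to 195 CPM in the Dazl-positive cells and 129 CPM in the Dazl-zero cells, a ratio of 0.59 (0.46 to 0.73). Of 11 with the minimum, 3 were called higher, beside 1.06% of all genes. Cox7b2, a testis form of a cytochrome c oxidase subunit, had 42 UMIs or 9.56 CPM (6.89 to 12.9) in the positive cells and 23 UMIs or 2.98 CPM (1.89 to 4.48) in the zero cells. Its ratio of 1.68 (0.91 to 2.48) was the highest of the list, and it was seen in 16% (11.1 to 22.1) of the positive cells and 5.79% (3.52 to 8.90) of the zero cells. Gpat2, a mitochondrial acyltransferase linked to piRNA production in mouse testis, had 9.78 CPM (7.08 to 13.2) in the positive cells and 4.02 CPM (2.73 to 5.71) in the zero cells, a ratio of 1.28 (0.58 to 2.00). Gpat2 was seen in 19.8% (14.3 to 26.2) of the positive cells and 7.01% (4.50 to 10.3) of the zero cells. Tuba3a, an alpha-tubulin of testis, had 44.1 CPM (38.2 to 50.8) in the positive cells and 22.2 CPM (19 to 25.8) in the zero cells, a ratio of 0.99 (0.69 to 1.30). Naa11, an acetyltransferase subunit gene, had the same ratio of 0.99 (0.25 to 1.73) on 35 UMIs in the positive cells and 31 in the zero cells, with overlapping intervals. Tuba3a has a near-identical copy and overlaps another gene on the opposite strand, as does Sycp3, which makes both counts uncertain. Of the 10 called members, Cox7b2, Gpat2, Tuba3a, Rhox13 and Fkbp6 were called in all 3 thinning draws.

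The difference was spread over cells and was not a full separation of them. At the fixed depth, germline list UMIs per cell, without Dazl, ranged between 3 and 71 with a median of 22 in the Dazl-positive cells and between 2 and 56 with a median of 17 in the Dazl-zero cells. The quartiles were 15.5 and 31 in the positive cells and 12 and 22 in the zero cells, so the sides overlapped over most of their range. The 133 cells with 1 Dazl UMI had a median of 17, as the zero cells had. Of the positive cells 66.3% (59.1 to 73.0) lay above the zero-side median, and of the zero cells 47.0% (41.4 to 52.5) did. Above the zero-side 90th percentile were 33.2% of the positive cells and 9.76% of the zero cells. Without the positive cell with the most list UMIs the list ratio was 0.45.

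**Figure D2:**
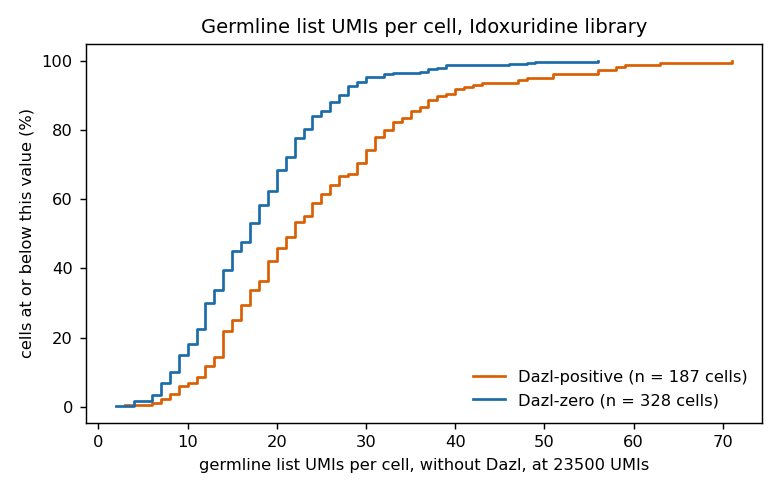
Share of cells (percent) at or below each number of germline list UMIs per cell at the fixed depth, without Dazl, for the 187 Dazl-positive and the 328 Dazl-zero Idoxuridine cells. The positive curve lies to the right, with a median of 22 against 17 UMIs, and both curves overlap over most of the range.

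The summed germline level was not the same over the positive cells but rose with their Dazl count. The list stood at 749 CPM in cells with 0 Dazl UMIs, 765 CPM (734 to 796) with 1, 865 CPM (828 to 903) in the 103 cells with 2 to 4, 1123 CPM (1064 to 1185) in the 51 cells with 5 to 9 and 1411 CPM (1328 to 1497) in the 33 cells with 10 or more. In the 47 cells with exactly 2, at the edge of the positive side, it was 834 CPM (781 to 890). The intervals of the cells with 0 and with 1 Dazl UMI overlapped, and those of the 3 higher bins stood apart from each other. Fkbp6 stood at 45.4, 44.8, 51.2, 96.0 and 106 CPM over the 5 bins, with overlapping intervals among the 3 lower bins and between the 2 higher ones. Tuba3a stood at 22.2, 18.2, 27.3, 52.6 and 83.8 CPM, and Tex19.1 at 111, 107, 131, 212 and 258 CPM. Cox7b2 was at 2.98, 3.84, 4.54, 11.7 and 21.9 CPM. In each of these 4 genes the bin with 5 to 9 lay above that with 0 without overlap of the intervals, and the bins with 0 and 1 had overlapping intervals. The other called members were less clear over the 3 higher bins. Rhox9 stood at 25.6, 26.7 and 28.4 CPM, and Gpat2 at 8.68, 11.7 and 10.3 CPM. Rhox13 was at 17.4, 11.7 and 20.6 CPM, Taf7l at 10.7, 10.8 and 16.8 CPM and Sycp3 at 33.1, 33.4 and 51.6 CPM. Within each of these genes the intervals overlapped. Sohlh2 was at 10.3, 12.5 and 25.8 CPM, with the last apart from the first. A rise with Dazl count was also seen outside the germline list. The imprinted list stood at 2358, 2391, 2393, 2642 and 3035 CPM over the 5 bins. Gsn stood at 19.6 CPM with 0 and 55.4 CPM with 10 or more. The general pluripotency list went the other way, at 4447 and 3875 CPM in these 2 bins, as did Nespas at 19.2 and 11.6 CPM.

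**Figure D3:**
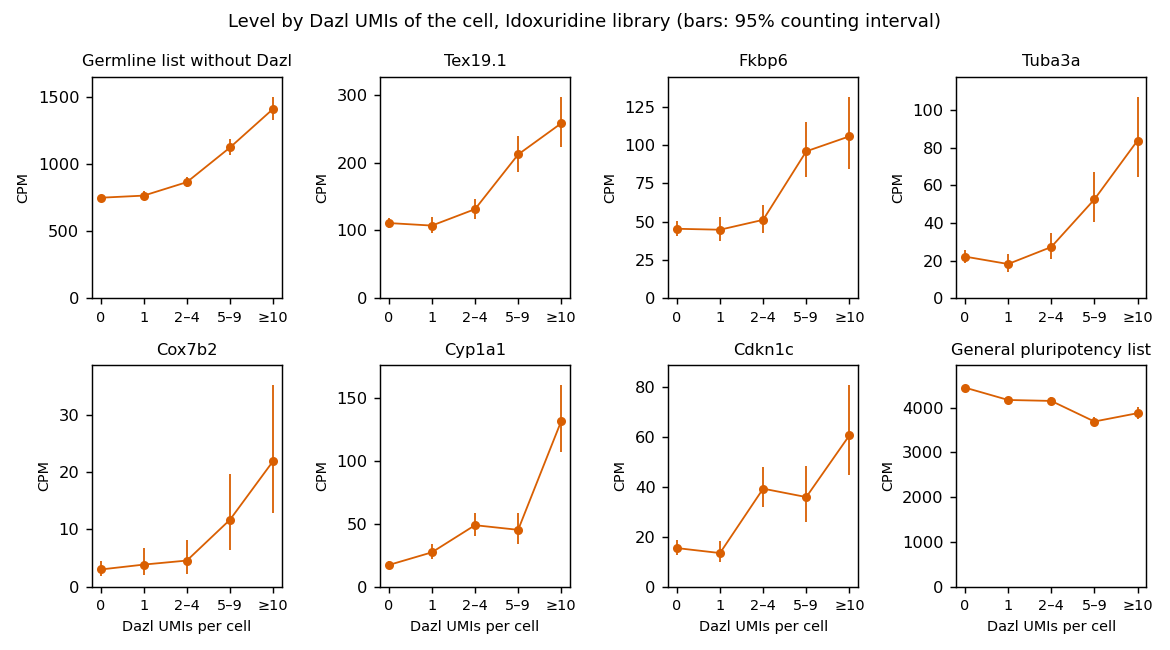
Level in CPM, with 95% counting intervals, against the Dazl UMIs of the cell (0, 1, 2 to 4, 5 to 9, 10 or more) for the germline list, 6 genes and the general pluripotency list. The germline list reads 749, 765, 865, 1123 and 1411 CPM, while the general pluripotency list reads 4447, 4171, 4149, 3689 and 3875 CPM.

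Outside the germline list, the 3 genes with the highest ratios among those with at least 200 UMIs were Cyp1a1, Esx1 and Cdkn1c. Cyp1a1, a cytochrome P450 gene that the aryl hydrocarbon receptor turns on, had 274 UMIs or 62.4 CPM (55.2 to 70.2) in the Dazl-positive cells and 132 UMIs or 17.1 CPM (14.3 to 20.3) in the Dazl-zero cells, a ratio of 1.86 (1.56 to 2.18). It was seen in 28.9% of the positive cells and 17.7% of the zero cells. A single positive cell held 45 of its UMIs, and without that cell the ratio was 1.61. By Dazl count it stood at 17.1 CPM with 0, 27.2 with 1, 48.8 with 2 to 4, 45.1 with 5 to 9 and 132 with 10 or more. Esx1, an X-linked homeobox gene of placenta and male germ cells, had 32.1 CPM (27.0 to 37.8) in the positive cells and 10.8 CPM (8.58 to 13.3) in the zero cells, a ratio of 1.58 (1.17 to 1.98). Unlike the germline list, Cyp1a1 had intervals for 0 and 1 Dazl UMI that did not overlap.

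The other genes of this group had smaller ratios. Cldn3, a tight junction gene, had 30.5 CPM in the Dazl-positive cells and 14.7 CPM in the Dazl-zero cells, a ratio of 1.06 (0.68 to 1.43). Gsn and Cald1, of the actin cytoskeleton, were at 0.80 and 0.77. Cyr61, a secreted matrix-associated protein gene, had 65.5 CPM in the positive cells and 38.9 CPM in the zero cells, a ratio of 0.75 (0.51 to 0.99), and Gsto1, a glutathione transferase gene, had 63.7 CPM in the positive cells and 39.2 CPM in the zero cells, a ratio of 0.70 (0.46 to 0.94). Ldoc1, an X-linked gene derived from a retrotransposon, was at 0.75, the vesicle tethering gene Vps16 and the ubiquitin ligase gene Ubr1 at 0.73, Klhl22 at 0.71 and Plekhb2 at 0.70. Khdc1a, an oocyte and early embryo gene, was at 0.76 (0.37 to 1.15), but 33 of its 113 UMIs in the positive cells came from 1 cell, and without it the ratio was 0.27. Cyp1a1, Esx1, Cdkn1c, Cldn3, Khdc1a, Klhl22 and Gsto1 were called in all 3 draws. Gsn, Cdkn1c, Cldn3, Cald1, Vps16, Ubr1 and Gsto1 overlap other genes, which makes their counts uncertain.

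**Figure D4:**
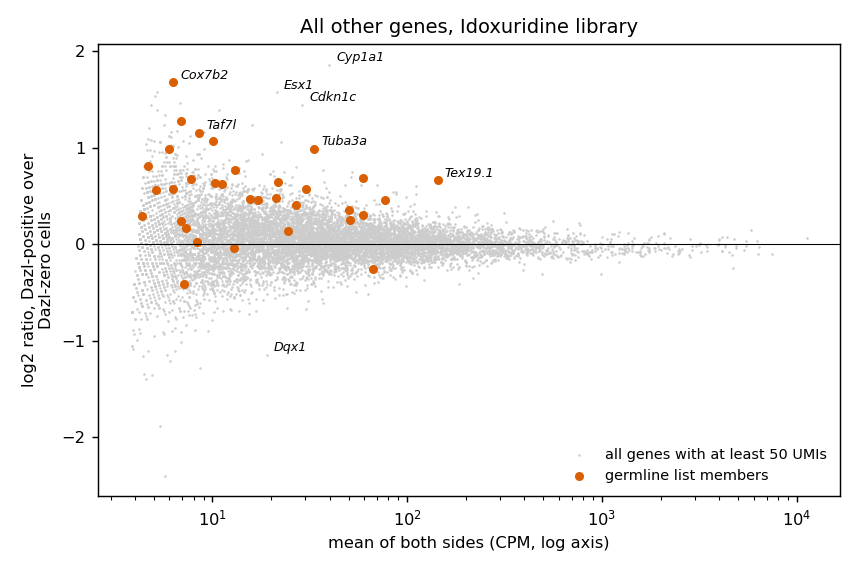
Log2 ratio of Dazl-positive over Dazl-zero cells against the mean CPM of both sides (log axis) for the 10142 genes with at least 50 UMIs, germline list members in orange. Cyp1a1 at 1.86 and Dqx1 at -1.15 lie well off the band of genes of like level, and 76.2% of all genes lie within 0.25.

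Fewer genes were lower in the Dazl-positive cells than were higher. Dqx1, a helicase-like gene, had 52 UMIs or 11.8 CPM (8.84 to 15.5) in the positive cells and 202 UMIs or 26.2 CPM (22.7 to 30.1) in the zero cells, a ratio of -1.15 (-1.62 to -0.70), and was lower in all 3 draws. The next were Mccc1, a subunit gene of leucine breakdown, at -0.69, the actin regulator gene Wasf1 at -0.67, the BCL2 family gene Bok at -0.66, Cyhr1 at -0.61, the stress-induced gene Nupr1 at -0.59 and the cationic amino acid transporter gene Slc7a3 at -0.57. Rras, Zfp936, Pla2g1b, Tor3a, Arhgap30 and Pomgnt1 lay between -0.55 and -0.50. Of the 30 genes named at the ends of this ranking, Fam25c at -0.50 (-0.4996 unrounded) and Slc25a33 at -0.49 missed the size limit. Mccc1, Cyhr1, Pomgnt1 and Slc25a33 overlap a gene on the other strand, which makes their counts uncertain.

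Imprinted genes, whose expression depends on parental DNA methylation, had a small group ratio with members in both directions. The 40 in the table summed to 2574 CPM in the Dazl-positive cells and 2358 CPM in the Dazl-zero cells, a ratio of 0.13 (0.09 to 0.16). Of the 28 with the minimum, 3 (10.7%) were called higher, beside 1.06% of all genes, and 1 lower, beside 0.256%, 23 were above 0, and the median was 0.11. Cdkn1c, a maternally expressed inhibitor of the cell cycle, had 42.1 CPM (36.3 to 48.6) in the positive cells and 15.4 CPM (12.8 to 18.5) in the zero cells, a ratio of 1.45 (1.11 to 1.79). It was seen in 34.8% (28.0 to 42.1) of the positive cells and 27.7% (23.0 to 32.9) of the zero cells. A single positive cell held 22 of its 185 UMIs on that side, and without that cell the ratio was 1.27. Ndn, which encodes necdin, had 15.7 CPM in the positive cells and 8.56 CPM in the zero cells, a ratio of 0.87 (0.37 to 1.38). Peg10, a placental gene derived from a retrotransposon, had 103 CPM (93.8 to 113) in the positive cells and 71.9 CPM (66.0 to 78.1) in the zero cells, a ratio of 0.52 (0.34 to 0.70). Without the positive cell that held 32 of its UMIs the ratio was 0.42, under the size limit. Nespas, an antisense RNA of the Gnas locus, was the 1 called lower, at 11.6 CPM in the positive cells and 19.2 CPM in the zero cells, a ratio of -0.73 (-1.22 to -0.26). Cdkn1c and Ndn were called in all 3 thinning draws, and Peg10 and Nespas were not. Phlda2 and Peg3 were both at 0.46, Slc38a4 at 0.58 and Meg3 at 0.07, none of them called. Nespas overlaps Gnas, and Ndn and Cdkn1c overlap other transcripts, on the opposite strand, so their counts are uncertain. The list ratio was -0.01 among cells called G2/M and close to 0 (-0.00796) among cells with a low share of nuclear-retained RNA, so its direction did not hold over the settings tried.

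The genes that set and read DNA methylation had a summed ratio near 0. Of 21 genes of this machinery 0 were called, beside 1.06% higher and 0.256% lower of all genes. Their sums were 2362 CPM in the Dazl-positive cells and 2364 CPM in the Dazl-zero cells, a log2 ratio with an interval of -0.04 to 0.03. Dnmt1, the maintenance methyltransferase, had 129 CPM (119 to 140.3) in the positive cells and 115 CPM (107 to 123) in the zero cells, a ratio of 0.17 (0.02 to 0.33). Uhrf1, its partner, was at -0.08, and the de novo enzymes and their cofactor, Dnmt3a, Dnmt3b and Dnmt3l, at -0.11, 0.14 and 0.03. Tet1, which oxidises methylcytosine, had 110.1 CPM in the positive cells and 126 CPM in the zero cells, a ratio of -0.20 (-0.36 to -0.04). Dppa3, which limits Dnmt1 and Uhrf1 in oocytes, was at 0.27 (0.10 to 0.43). Of 22 genes for repressors of germline promoters 0 were called, and their list ratio had an interval of -0.04 to 0.03. Beside the shares of all genes, a count of 0 says little on either list. Both list ratios changed sign between settings.

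Markers of the stem cell state were present on both sides. Of 14 general pluripotency genes 0 were called, but their sum was lower, at 3975 CPM (3916 to 4035) in the Dazl-positive cells and 4447 CPM (4399.9 to 4494) in the Dazl-zero cells, a ratio of -0.16 (-0.19 to -0.14). It stayed between -0.24 and -0.09 over the settings tried, cells called G1 left out. Dppa5a, an RNA-binding protein of pluripotent cells, had 887 CPM in the positive cells and 1096 CPM in the zero cells, a ratio of -0.30, and Tdgf1, a Nodal co-receptor gene, was at -0.26. Their median ratio was -0.01, and Dppa4 and Esrp1 were above 0 at 0.31 and 0.85. Of 20 naive pluripotency genes 0 were called, with a list ratio of -0.05 and a median of 0.03, which differ in sign. Among all genes 1.06% were higher and 0.256% lower, so counts of 0 on the lists of 14 and 20 say little. Of 11 genes of germ cell specification that could be called, 1 was higher, the same Fkbp6, with a list ratio of 0.17 (0.10 to 0.24).

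**Figure D5:**
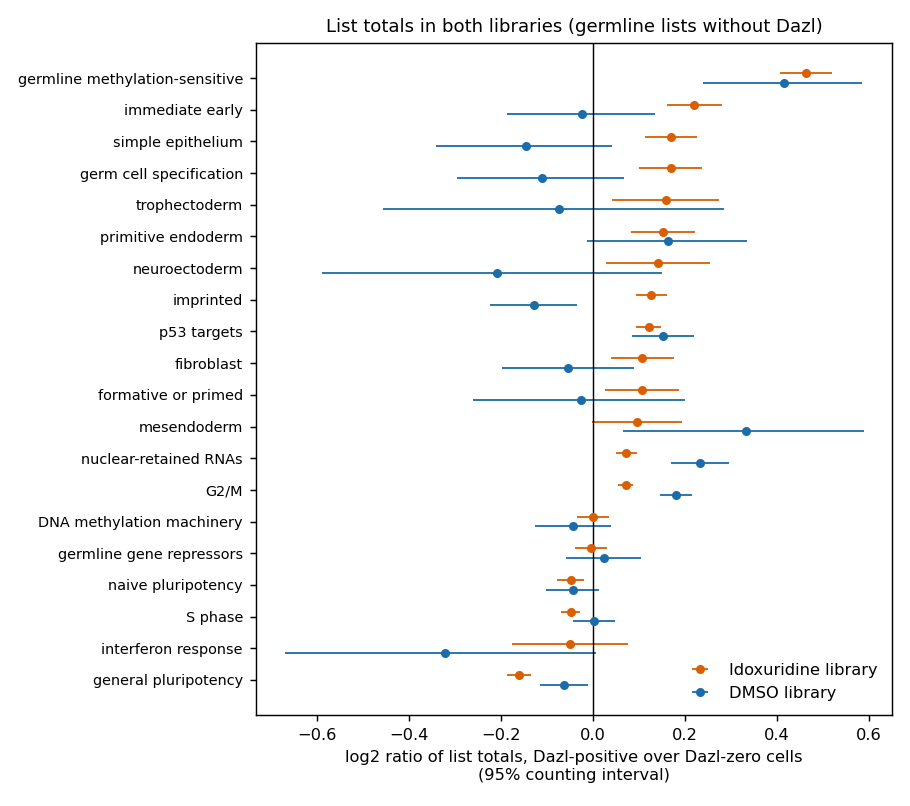
Log2 ratio of summed list levels, Dazl-positive over Dazl-zero cells, with 95% counting intervals, in the Idoxuridine library (orange) and the DMSO library (blue). The germline list has the highest Idoxuridine value at 0.46 and stands at 0.41 in DMSO, and the imprinted list is at 0.13 in Idoxuridine and -0.13 in DMSO. Dazl itself was at 302 CPM in the Idoxuridine positive cells and 104 CPM in the DMSO positive cells.

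Lists of other cell types and of stress follow, beside 1.06% of all genes higher and 0.256% lower, so a count of 0 on a list this short says little. In the primitive endoderm list 2 of 9 genes were higher, Srgn at 1.40 and Dab2 at 0.98, and the list ratio was 0.15. In the simple epithelium list 2 of 13 were higher, Cldn3 and Krt18, a keratin gene with 22.3 CPM in the Dazl-positive cells and 9.47 CPM in the Dazl-zero cells, a ratio of 1.24 (0.78 to 1.69), and the list ratio was 0.17. The trophectoderm, mesendoderm, neuroectoderm and fibroblast lists had 0 of 7, 0 of 5, 0 of 2 and 0 of 3 called and list ratios between 0.10 and 0.16. The mesendoderm, fibroblast and interferon response ratios changed sign in at least 1 setting tried. Among 38 p53 targets, genes turned on after DNA damage, 1 was higher, Perp, at 100.4 CPM in the positive cells and 69.0 CPM in the zero cells, a ratio of 0.54, and the list ratio was 0.12 (0.09 to 0.15). Of 12 immediate early genes 1 was higher, Fos, at 0.74, with a list ratio of 0.22. Of 11 genes that were near silent in the DMSO library and higher in the Idoxuridine library, a list picked on these libraries, 1 was higher, Ldoc1, and 1 lower, Gm5662, at 5.01 CPM in the positive cells and 12.2 CPM in the zero cells. That list summed to a ratio of 0.27. The formative and interferon response lists had 0 of 11 and 0 of 5 called and list ratios of 0.11 and -0.05, and Gm5662 was the 1 gene of the 2-cell-embryo list with the minimum. Gm5662 had 22 UMIs in 15 positive cells and 94 UMIs in 23 zero cells. The 2-cell-embryo list ratio was -1.06 (-1.74 to -0.44), and -0.16 (-0.72 to 0.38) in draw 2. Of the genes called on the lists of this paragraph, only Cldn3 and Krt18 were called in all 3 thinning draws.

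Depth, RNA quality and cell cycle calls were set side by side. The median deposited depth was 37361 UMIs in the Dazl-positive cells and 40778 UMIs in the Dazl-zero cells. The median mitochondrial share was 2.80% in the positive cells and 2.76% in the zero cells, and nuclear-retained RNAs took 0.50% in the positive cells and 0.46% in the zero cells. The median number of genes seen per cell at the fixed depth was 5421 (quartiles 5329 and 5546) in the positive cells. In the zero cells it was 5343.5 (5243.5 and 5455). Ribosomal protein genes took a median of 12.4% in the positive cells and 12.8% in the zero cells. The part of these differences in the calls was not tested. G2/M was called for 49.7% (42.4 to 57.1) of the positive cells and 43.3% (37.9 to 48.8) of the zero cells, and S for 48.1% (40.8 to 55.5) of the positive cells and 56.4% (50.8 to 61.8) of the zero cells, with overlapping intervals in both. Of 54 G2/M genes and 43 S genes 0 were called, with list ratios of 0.07 and -0.05, and of 6 nuclear-retained RNAs 0, with 0.07, each of which changed sign in at least 1 setting. Of all genes 1.06% were higher and 0.256% lower, so a count of 0 on these lists says little. The germline ratio was 0.44 within cells called S and 0.42 within cells called G2/M, and 0.39 and 0.52 within the shallower and the deeper cells. Free RNA and doublets were not measured, and their part in these results was not tested. Without the deepest cells (those above the 90th percentile of depth) the germline ratio was 0.44.

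The same rule applied to the DMSO library gave fewer positive cells, with 23 Dazl-positive and 661 Dazl-zero cells among 764. Those 23 cells held 56 Dazl UMIs or 104 CPM, against 302 CPM in the Idoxuridine positive cells. The sides are therefore not alike in Dazl level between the libraries. In DMSO the germline list stood at 533 CPM (473 to 598) in the Dazl-positive cells and 400 CPM (390 to 410) in the Dazl-zero cells, a ratio of 0.41 (0.24 to 0.59). A single DMSO positive cell held 38 of the list UMIs, and without it the ratio was 0.27 (0.09 to 0.46). In the same cells other lists were higher too, with ratios of 0.33 (0.07 to 0.59) for mesendoderm, 0.23 (0.17 to 0.29) for nuclear-retained RNAs, 0.18 (0.14 to 0.21) for G2/M and 0.15 (0.08 to 0.22) for p53 targets, and their part in the germline ratio was not tested. The simple epithelium and germ cell specification lists were at -0.15 (-0.34 to 0.04) and -0.11 (-0.30 to 0.07), where the Idoxuridine library had 0.17 for both. The median germline list UMIs per cell were 10 in the DMSO positive cells and 8 in the DMSO zero cells. Fkbp6 was at 33.3 CPM in the DMSO positive cells and 11.4 CPM in the DMSO zero cells, a ratio of 1.55 (0.76 to 2.25), from 18 and 177 UMIs. Tuba3a was at 57.4 CPM in the DMSO positive cells and 24.4 CPM in the DMSO zero cells, a ratio of 1.23 (0.66 to 1.76), and Sycp3, Rhox13 and Rhox9 had ratios of 1.55, 1.56 and 1.25 on 14, 8 and 12 UMIs in those 23 cells. Tex19.1 was at 0.22 (-0.58 to 0.91), and Gpat2 and Cox7b2 had 1 and 0 UMIs in the DMSO positive cells, too few for a ratio. Cyp1a1 had 6 UMIs in the DMSO positive cells and 147 in the DMSO zero cells, and Esx1 had 0 in the DMSO positive cells, which allows up to 5.55 CPM, and 26 UMIs in the DMSO zero cells. In the Idoxuridine library the germline list stood at 834 CPM in cells with exactly 2 Dazl UMIs and 749 CPM in cells with 0. Whether the split differed between the libraries was not tested.

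Position in the genome was described too. Of the 107 higher genes, 12 (11.2%) lie on the X chromosome, against 326 of 10136 tested genes with a position (3.22%). They are Rhox9, Rhox13, Taf7l, Esx1, Ldoc1, Xlr3b, Prkx, Psmd10, Spin2c, Scml2, Hccs and 4933402E13Rik. Among the 97 higher genes outside the germline list 9 (9.28%) did, and among the 33 germline members with the minimum 5 (15.2%). Of the 26 lower genes, 2 (7.69%) lie on the X chromosome. Of 8 other genes within 500 kb of Dazl, 3 had the UMI minimum and 0 were called. Among all genes 1.06% were higher and 0.256% lower, so 0 of 3 says little. Rftn1, a lipid raft protein gene, was at 0.15 (-0.40 to 0.69), and Tbc1d5, a Rab regulator gene, at 0.59 (-0.26 to 1.43) from 24 UMIs in the Dazl-positive cells and 28 in the Dazl-zero cells. Likeness to Dazl over all 648 cells, as Pearson's r on log2(UMI + 1), was weak even for the 10 highest genes. Tex19.1 was highest at 0.218, then Tsnax at 0.217, Pard3 at 0.195, Gsn, Cand1 and Pcgf5 at 0.186, Hnrnpk at 0.183, Hormad1 at 0.180, Cyp1a1 at 0.179 and Zfand5 at 0.176, and these points share 1 library and 1 depth. Larger in size but negative were H2afz, a histone variant gene, at -0.242 and Eif4ebp1, a translation repressor gene, at -0.235, and Mkrn1 was at -0.185, all named after their values were seen.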

How the data were processed

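The authors deposited raw UMI counts, as whole numbers, of 27998 genes in each cell. Cell Ranger 2, Seurat and mm10 are listed, per the submitters' processing notes. Cell calling, annotation release, strand use and doublet removal: not given in the sources used here. Every barcode in the files was kept as a cell, no doublet caller was run, and 2 barcodes were in both libraries. The Idoxuridine library held 30454626 UMIs in 742 cells. Gene positions are those of GENCODE M21 on GRCm38, where 27722 identifiers (99.0%) were found.

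Cells were thinned without replacement (seed 1, numpy 2.4.6), UMIs summed per side and scaled to 10⁶ UMIs. Poisson intervals, conditional binomial intervals of ratios and Clopper-Pearson intervals of shares (scipy 1.17.1) are exact, at 95%, and cover counting error only. Phases were called with scanpy 1.11.5, and trimmed mean of M values scaling used edgeR 4.0.16 for factors only. The comparison step was run on simulated Poisson sums per side. These held no further spread between cells and no choice of sides by Dazl, so that run says nothing on either. The members and the 22 gene lists (490 genes, 9 not in the table) were chosen with earlier results of these data known. Named genes were the 15 at each end with at least 200 UMIs and separate intervals, germline and imprinted members with at least 50, up to 4 members of each other list, and 10 by likeness. Names of the higher X-linked genes were added after their values were seen. Alternatives were other draws, depths, Dazl thresholds, scalings, UMI minimums and subsets of cells. Leaving out the cell with the most UMIs and counting genes called in all 3 draws were added after values were seen.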

Additional observations from a re-analysis of the deposited data

Results flagged for a closer look

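The imprinted list differed in direction between the libraries. Its summed level, Dazl-positive over Dazl-zero cells, had a log2 ratio of 0.13 (0.09 to 0.16) in the Idoxuridine library and -0.13 (-0.22 to -0.03) in the DMSO library, where it stood at 1721 CPM in the 23 positive cells and 1881 CPM in the 661 zero cells. The direction did not hold within the Idoxuridine library. There the ratio was -0.013 in cells called G2/M, -0.00796 with a low share of nuclear-retained RNA and -0.41 in cells called G1. The difference between the libraries was not tested.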

How the results depend on the processing

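Of 2512 values of 153 named genes under other settings, 2151 moved by less than the counting interval, 344 moved further and 17 changed sign. The germline ratio was 0.46, and 0.30, 0.55 and 0.72 with at least 1, 3 and 5 Dazl UMIs on the positive side, 0.39 in the shallower cells and 1.24 in cells called G1 (4 positive and 1 zero). The imprinted ratio of 0.13 was 0.17 at 15000 UMIs, 0.083 and 0.25 with at least 1 and 5 Dazl UMIs, 0.083 with trimmed mean scaling, 0.17 in the shallower and 0.040 in the deeper cells, 0.22 in S, and 0.19 with a high share of nuclear-retained RNA. It was below 0 in G1 (-0.41), in G2/M (-0.013) and with a low share of nuclear-retained RNA (-0.00796). The 107 higher genes were 64 and 182 with at least 1 and 5 Dazl UMIs, 62 in the deeper cells, 29 in G1, 55 in G2/M, 53 with a low nuclear-retained share, 53 at 200 UMIs and 405 by fold alone. The 26 lower genes were 14 and 60 with at least 1 and 5 Dazl UMIs, 40 with trimmed mean scaling, 45 in the shallower cells, 48 in S, 15 in G2/M, 17 and 44 with a low and a high nuclear-retained share, 13 at 200 UMIs and 191 by fold alone. Signs changed for Tor3a in draw 2 (0.00317), Vps16 in draw 3 (-0.066), Wasf1 (0.19), Rras (0.048) and Arhgap30 (0.031) at 15000 UMIs, Ldoc1 in the deeper cells (-0.15), and Khdc1a in G2/M (-0.067) and with a low nuclear-retained share (-0.24). In G1 they changed for Gsn (-2.58), Cald1 (-1.58), Klhl22 (-1.42), Plekhb2 (-1.0), Taf7l (-2.42), Gpat2 (-0.68), Peg10 (-0.76), Fos (-1.0) and Perp (-1.12). The cause was not tested. At the fixed depth, genes under 50 UMIs over both sides could not be called. No paired analysis was possible because each treatment had 1 library and the result comes from no test.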
